A study of Lathyrus oleraceus with 4 samples.

Results

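The 3 cell cycle transcripts described here are those measured by the probes AB008186, a pea proliferating cell nuclear antigen (PCNA), AB008188, a pea cyclin D, and AY169794, the pea mini-chromosome maintenance protein MCM3. They are 3 of the 2234 probes of a custom oligonucleotide array for garden pea (Pisum sativum), and all 3 were found by accession in each of the 4 array tables. The accessions were chosen because their signal in the shoot apical meristem (SAM) was known to be above that in non-meristem (NM) tissue on these same arrays. Their SAM/NM values are therefore given as a description, without a test of the SAM against the NM. The study asked which genes are expressed differently in the SAM and in the NM.

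The SAM samples were micro-dissected from 10-day-old plants of the cultivar Torsdag, with leaf primordia removed and about 80 SAMs in each extraction. The NM samples held RNA of primary stem, primary roots and mature leaves, so the NM is a mixture of organs and not 1 tissue. Each of the 4 tissue collections was hybridized to its own sector of 1 chip, with both tissues on the same sector. The SAM was labelled with Cy3 and the NM with Cy5 on sectors 1 and 3, and the dyes were exchanged on sectors 2 and 4. The replicate is the collection, n = 4 arrays throughout, and this number limits the precision of every value.

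Before a plant cell copies its DNA, D-type cyclins bind cyclin-dependent kinases and phosphorylate the retinoblastoma-related protein, which releases E2F transcription factors in G1. Genes of the replication machinery, PCNA and MCM genes among them, are known E2F targets in Arabidopsis. The MCM proteins form the ring that unwinds DNA at the replication fork. PCNA is the sliding clamp that is loaded onto DNA by replication factor C and that holds DNA polymerase delta to its template. Such transcripts are known markers of dividing tissue, and the SAM is the tissue of the shoot where new cells arise.

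The median probe gave an intensity between 170.2 and 791.8 per array and channel, the median of the 6 blank spots lay between 43.8 and 157, and every probe exceeded the blanks of its channel. The ratios were normalized within arrays by a robust spline on signal strength and turned so that a value above 0 means more signal from SAM RNA. The array tables number their channels without naming dyes. Channel 1 was taken as Cy5. The sample labels list Cy3 first, and read in that order every sign given here would turn. With the first channel as Cy5, the 4 photosynthesis probes taken as markers of green tissue were lower in the SAM on every array, and mature leaves are part of the NM. The mean log2 SAM/NM ratio was -2.58 for Lhcb3 (AY845255), -2.50 for RuBisCO activase (AY065656), -2.90 for oxygen-evolving enhancer protein 3 (AY292531) and -1.35 for photosystem II CP47 (AY007467). The direction is therefore likely and not settled by the array tables, which name no dyes. Of 22 accessions that the study lists as higher in the SAM and the array tables name, 21 had their published ratio in this channel order. These ratios came from the deposited log2 ratios, so the study read the channels in the same order. Probes for genes that define the meristem itself, such as those of the KNOX, WUSCHEL and CLAVATA genes, were not identified here. The 4 photosynthesis probes served to judge the channel order, and the study lists them as lower in the SAM on these arrays. They are thus no check of the SAM label, which was not checked otherwise.

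PCNA had the highest SAM/NM ratio of the 3 transcripts, cyclin D followed and MCM3 had the lowest. The ratio that corresponds to the mean log2 value (a geometric mean) was 3.74 for PCNA, 1.99 for cyclin D and 1.45 for MCM3. Each transcript had a ratio above 1 on all 4 arrays, as did 17.9% of all probes. All 3 passed the limits of the comparison over all probes (limma, adjusted p under 0.05 and a ratio above 1.3). Of the 2234 probes, 9.76% passed these limits in the same direction. Since this contrast chose the members, the count is not evidence about them.

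PCNA (AB008186) had normalized log2 SAM/NM ratios of 1.57, 1.46, 2.92 and 1.67 on sectors 1, 2, 3 and 4. Sector 3 stood far above the other 3 arrays, which lay close together after this normalization. With median centring alone they did not, at 1.14, 1.87 and 2.13 on sectors 1, 2 and 4, and sector 3 was at 2.78. The mean was 1.90 ± 0.68 (SD, n = 4 arrays), and without sector 3 it was 1.56 ± 0.11 (SD, n = 3). Of all probes, 97.8% had a smaller SD over the arrays than AB008186. In the order of all ratios on an array, highest first, AB008186 was at places 21, 27, 6 and 34 of the 2234 probes on sectors 1, 2, 3 and 4. It thus stood among the highest ratios of each array, and sector 3 raised its place as well as its value. The 4 photosynthesis probes had a median log2 ratio of -2.26, -1.54, -3.05 and -3.32 on sectors 1, 2, 3 and 4. The lowest median was thus on sector 4, but the probes differed. The lowest ratio was on sector 4 for Lhcb3 and RuBisCO activase, on sector 3 for oxygen-evolving enhancer protein 3 and on sector 1 for CP47. The part of green tissue in the PCNA ratio was not tested. The probes within 2 spots of AB008186 had a median log2 ratio of -0.01 on sector 3, against 2.92 for AB008186 itself.

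Cyclin D (AB008188), the regulatory partner of the kinases that act in G1, had normalized log2 SAM/NM ratios of 0.89, 0.62, 1.12 and 1.33 on sectors 1, 2, 3 and 4. The values were spread evenly after this normalization, with sector 2 lowest and sector 4 highest. For the deposited log2 ratios they were 0.99, 0.66, 1.08 and 1.07 on sectors 1, 2, 3 and 4, with sector 2 lowest and sector 3 highest. The mean was 0.99 ± 0.30 (SD, n = 4 arrays), at place 79 of the 2234 mean ratios, against place 17 for PCNA and place 180 for MCM3. On each array the log2 ratio of PCNA exceeded that of cyclin D, by 0.34 on sector 4 and by up to 1.80 on sector 3.

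MCM3 (AY169794), a subunit of the replicative helicase ring, had normalized log2 SAM/NM ratios of 0.43, 0.44, 0.81 and 0.47 on sectors 1, 2, 3 and 4. Again 3 arrays lay close together after this normalization and sector 3 was higher. With median centring alone the ratios were 0.58, 0.32, 0.88 and 0.39 on sectors 1, 2, 3 and 4, and without the dimmest probes sector 4 was at 0.61. The mean was 0.54 ± 0.18 (SD, n = 4 arrays), and without sector 3 it was 0.45 ± 0.02 (SD, n = 3). The ratio of cyclin D exceeded that of MCM3 on every array, by 0.18 to 0.85 on the log2 scale. The order PCNA, cyclin D, MCM3 therefore held on each of the 4 arrays, as the plot of ratios by array shows. These are differences between ratios of separate probes. They say nothing of which transcript was more abundant.

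**Figure D1:**
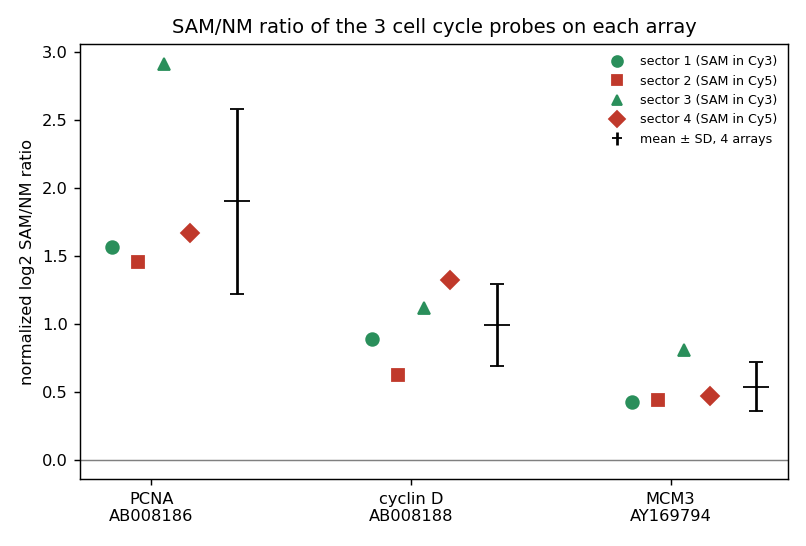
Normalized log2 SAM/NM ratio (vertical axis) of the PCNA, cyclin D and MCM3 probes on each of the 4 arrays, with colour for the dye of the SAM and the mean ± SD at the right of each group. All 12 points lie above 0, and sector 3 is the highest array for PCNA (2.92) and for MCM3 (0.81) but not for cyclin D (1.12).

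The channels behind these ratios differed in strength between the probes. Each intensity below was measured without background subtraction. AB008186 gave intensities of 1279.8 in the SAM against 338 in the NM on sector 1, and 879 in the SAM against 542 in the NM on sector 2. On sector 3 it gave 6795 in the SAM against 634 in the NM, and on sector 4 it gave 6763 in the SAM against 848 in the NM. The channels differ in gain, so each intensity was also divided by that of the median probe of its array and channel. On this scale PCNA was at 2.98 in the SAM against 1.303 in the NM on sector 1, at 5.16 against 1.36 on sector 2, at 11.4 against 1.75 on sector 3 and at 8.54 against 1.82 on sector 4. The NM values stayed within a narrow range above the median probe, and the SAM values varied far more. The high ratio of sector 3 thus came with the highest SAM value of the 4 arrays and not with a low NM value.

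AB008188 gave intensities of 562 in the SAM against 175 in the NM on sector 1, and 224 in the SAM against 336 in the NM on sector 2. On sector 3 it gave 1069 in the SAM against 298 in the NM, and on sector 4 it gave 1543 in the SAM against 352 in the NM. On sector 2 the unnormalized SAM intensity was thus the lower, on an array whose median probe gave 170.2 in the SAM channel against 397 in the NM channel. Relative to the median probe, cyclin D was between 1.31 and 1.95 in the SAM, against between 0.676 and 0.846 in the NM. It was above the median probe in every SAM channel and below it in every NM channel.

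AY169794 was dim. It gave intensities of 399.8 in the SAM against 155 in the NM on sector 1, 153 in the SAM against 276 in the NM on sector 2, 615 in the SAM against 215 in the NM on sector 3, and 675 in the SAM against 283 in the NM on sector 4. Relative to the median probe it was between 0.853 and 1.03 in the SAM, against between 0.594 and 0.694 in the NM. Its NM intensity was 2.28 to 3.81 times the median blank of the channel, and between 6.18% and 14.3% of the probes were dimmer there. In the SAM, between 40.1% and 51.4% of the probes were dimmer. The blank signal was not subtracted from these intensities, and whether the probes carry the signal of the blank spots was not tested. With the median blank subtracted from each channel, the log2 ratio of MCM3 was 0.74 ± 0.26, that of cyclin D 1.21 ± 0.33 and that of PCNA 2.05 ± 0.70 (SD, n = 4 arrays each). The subtraction raised the ratio of all 3 probes, and only for MCM3, whose SD was the smallest, by more than that SD.

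**Figure D2:**
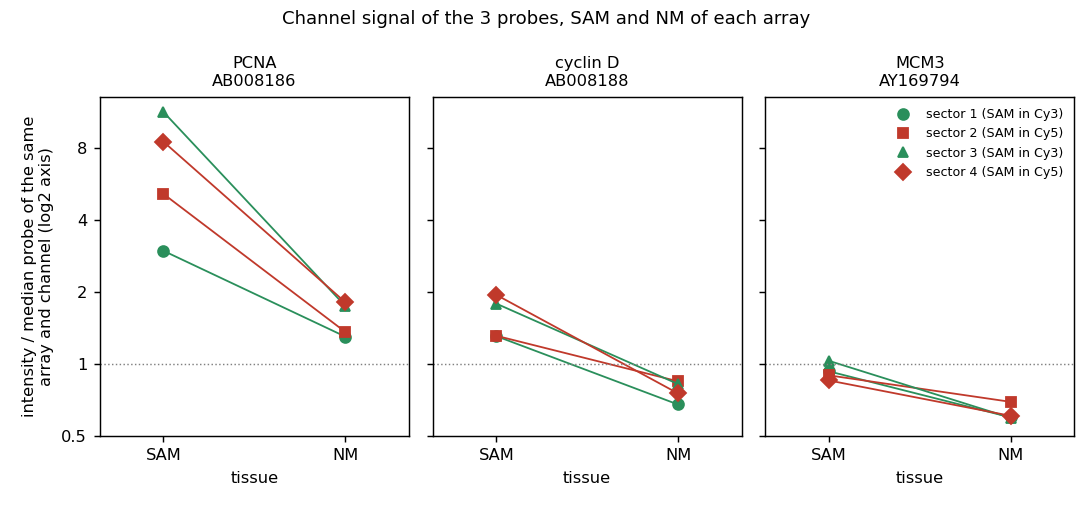
Intensity of each of the 3 probes divided by the median probe of the same array and channel (vertical log2 axis), SAM at the left and NM at the right, with a line for each array. For PCNA the SAM values run from 2.98 to 11.4 and the NM values from 1.303 to 1.82, while MCM3 stays between 0.853 and 1.03 in the SAM and between 0.594 and 0.694 in the NM.

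The exchange of dyes gave a further measure, the dye effect, which is the log2 ratio of Cy5 over Cy3 that remains after the tissue. In this balanced design it is estimated separately from the SAM/NM ratio. It is not free of the choice of transcripts, since the fit behind the calls has no dye term. A large dye effect widens the spread in that fit and makes a call less likely. It was fitted beside the tissue in limma and adjusted over all 2234 probes. PCNA had mean log2 SAM/NM ratios of 2.24 on the 2 arrays with SAM in Cy3 and 1.56 on the 2 with SAM in Cy5. Its dye effect was -0.34 (standard error 0.21, adjusted p = 0.380 in limma's test). Without sector 1 the dye effect was -0.68 with an adjusted p of 0.0417 in limma's test. In that fit sector 3 alone stood for the SAM in Cy3, so the value restates the high ratio of sector 3. Over the other alternatives the adjusted p was at least 0.214. Cyclin D had means of 1.00 with SAM in Cy3 and 0.97 with SAM in Cy5, and a dye effect of -0.01 (standard error 0.13, adjusted p = 0.957 in limma's test). MCM3 had means of 0.62 with SAM in Cy3 and 0.46 with SAM in Cy5, and a dye effect of -0.08 (standard error 0.08, adjusted p = 0.605 in limma's test). Over all probes, 0.224% passed the test of the dye at 0.05 after adjustment and 23.1% passed it before adjustment. All 3 transcripts were above 0 within each dye orientation.

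A list of 14 cell cycle and replication transcripts, the 3 members included, was taken from the annotations of the study and ordered by role. The study lists all 14 as higher in the SAM on these arrays, so their direction is not independent evidence. All 14 passed the limits as higher in the SAM and 0 as lower, beside 9.76% of all probes higher and 7.34% lower. When sector 3 or sector 4 was left out, 13 of the 14 passed, and with median centring alone 11 passed. Of all probes, 8.24% passed as higher without sector 3, 7.52% without sector 4 and 5.73% with median centring alone. For the list the median log2 SAM/NM ratio was 0.94, against -0.004 for all probes, and its lowest value was 0.52. The array tables name 5 of the 14 by accession. The other 9 were tied to a probe by their published ratio and p-value, used as a key only. Of 22 accessions in the published list that the array tables also name, the key found 21 under their own name. The exception was MCM3 (AY169794), which the key tied to no probe. The key thus rests on a list with at least 1 entry that it could not place, and the reason was not tested. The study also gives EX570270 and EX570428 other ratios, and EX570428 another MCM name, in a second place, which leaves the identity of the probes read here for EX570270, EX570419 and EX570428 uncertain.

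Of the sliding clamp transcripts, the PCNA probe Y16796 was very close to AB008186, and the clone probe S0388, tied to the PCNA transcript EX570270, was not. Y16796 had log2 SAM/NM ratios of 1.60, 1.80, 2.84 and 1.76 on sectors 1, 2, 3 and 4, with a mean of 2.00 ± 0.57 (SD, n = 4 arrays). It differed from AB008186 by at most 0.34 on any array, and sector 3 was its highest as well. The spots of both probes lay apart on the chip, at column 31 and row 38 for AB008186 and at column 3 and row 25 for Y16796. Whether the probes read 1 transcript or related transcripts cannot be told here, since their sequences were not used. S0388 had ratios of 0.67, 0.37, 1.32 and 1.17 on sectors 1, 2, 3 and 4, with a mean of 0.88 ± 0.44 (SD, n = 4 arrays). AB008186 exceeded S0388 on every array, by 0.50 to 1.59, and whether S0388 reads a PCNA transcript depends on the key.

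Among the 4 probes listed for MCM transcripts, MCM3 had the lowest mean ratio and was below each of the others on every array. MCM7 (AY371199), another subunit of the ring, had log2 SAM/NM ratios between 0.45 on sector 2 and 0.99 on sector 4, and a mean of 0.77 ± 0.25 (SD, n = 4 arrays). The difference between MCM3 and MCM7 lay between -0.52 on sector 4 and -0.01 on sector 2. The clone probe S0982, tied to EX570419 and listed as MCM6, had a mean of 0.83 ± 0.20, and S1048, tied to the MCM transcript EX570428, had a mean of 1.20 ± 0.49 (SD, n = 4 each). Sector 3 was the highest array for these last 2 transcripts, with values of 0.99 and 1.75.

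Cyclin D had the highest mean log2 ratio of the 4 transcripts annotated as cyclins or kinases, but not on every array. The mitotic cyclin B1-1 (EX570164), which acts at the entry into mitosis, had ratios of 1.3, 0.25, 1.02 and 0.59 on sectors 1, 2, 3 and 4. On sector 1 it exceeded cyclin D by 0.41, and on the other 3 arrays cyclin D was higher by 0.10 to 0.73. The mean difference of 0.20 was smaller than its SD of 0.48 over the 4 arrays. Cdc2msd (EX569815), annotated as a cyclin-dependent kinase of alfalfa, had a mean of 0.52 ± 0.27 and the cell cycle protein kinase EX570388 a mean of 0.60 ± 0.33 (SD, n = 4 each). The unnormalized intensities of cyclin B1-1 were between 564 and 4433 in the SAM, against between 526 and 1183 in the NM.

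The 3 other replication transcripts had mean ratios below that of AB008186 and above that of MCM3. The large subunit of replication factor C (EX570510), the clamp loader, had a mean log2 SAM/NM ratio of 1.21 ± 0.41 and values from 0.62 on sector 1 to 1.54 on sector 4. DNA polymerase delta (EX568991) had a mean of 1.05 ± 0.24 and values from 0.84 on sector 2 to 1.39 on sector 3. The transcript annotated only as a helicase (EX570486) had a mean of 1.04 ± 0.15 and values from 0.84 on sector 2 to 1.19 on sector 4 (SD, n = 4 arrays for the 3 transcripts). In bulk tissue such as these extracts, a larger share of cells that express a gene and more RNA in each such cell cannot be told apart.

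**Figure D3:**
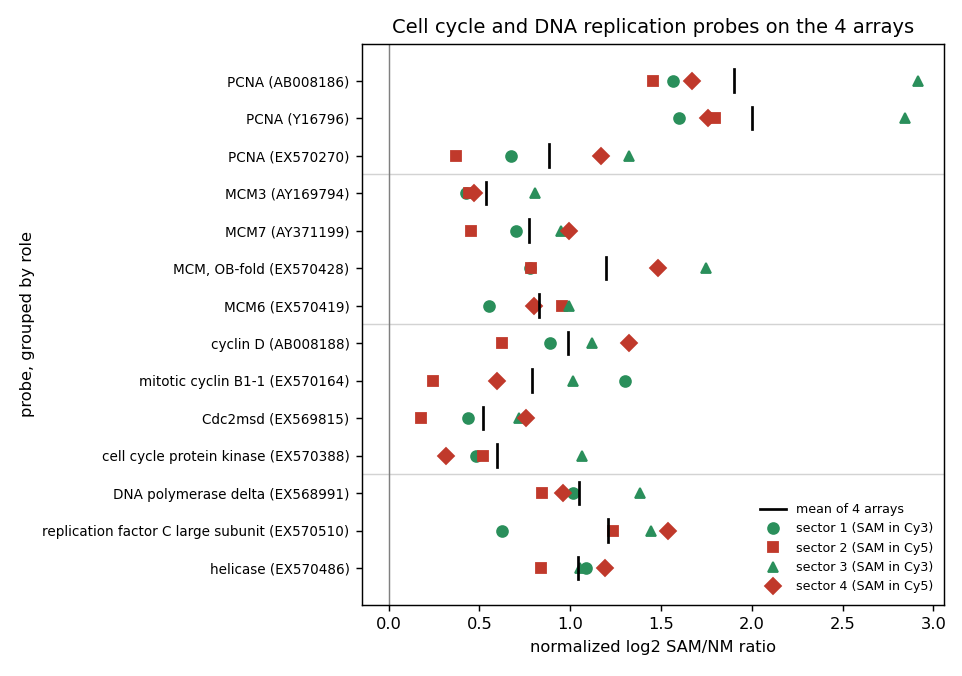
Normalized log2 SAM/NM ratio (horizontal axis) of the 14 cell cycle and replication probes, grouped by role, with a point for each array and a bar at the mean; names with EX are those tied to a probe by the key. The PCNA probes AB008186 and Y16796 lie together at means of 1.90 and 2.00 with sector 3 far to the right, and MCM3 has the lowest mean of the 4 MCM probes, 0.54.

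The median of the whole list was 0.74, 0.70, 1.09 and 1.08 on sectors 1, 2, 3 and 4. The probes called higher in the SAM, 218 in all, had medians of 0.70, 0.64, 1.03 and 0.93 on sectors 1, 2, 3 and 4. Sectors 3 and 4 thus gave larger ratios than sectors 1 and 2 in general. The spread of all 2234 log2 ratios, as the median absolute deviation, was 0.27, 0.26, 0.32 and 0.36 on sectors 1, 2, 3 and 4. When the arrays were scaled to equal spread, AB008186 had log2 ratios of 1.74, 1.67, 2.76 and 1.39 on sectors 1 to 4, and sector 3 was still its highest array.

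The probes with the most similar values over the 4 arrays were found by the root mean square difference of the log2 SAM/NM ratio. For AB008186 the nearest of all probes was Y16796 at 0.18, followed by the clones S0039 at 0.21 and C0178 at 0.25. For cyclin D the nearest were the clones S0827 at 0.12, C0256 at 0.14 and C0441 at 0.15. For MCM3 they were the clones S0265 at 0.07 and S0585 at 0.08 and the cysteine protease transcript AJ251828 at 0.09. None of the probes nearest to cyclin D and MCM3 belonged to the cell cycle list. The list holds only 14 of the 2234 probes and the clones were not identified here, so this is not a result about the members. With 4 arrays, such closeness only describes these values.

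**Figure D4:**
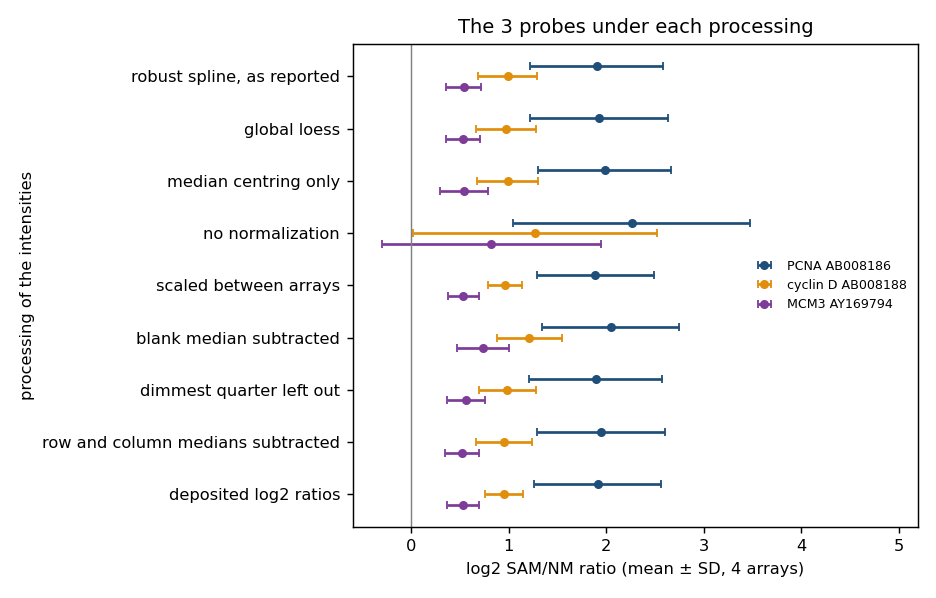
Mean log2 SAM/NM ratio ± SD over the 4 arrays (horizontal axis) of PCNA, cyclin D and MCM3 under each way of processing the intensities. The means keep the order PCNA, cyclin D, MCM3 under every setting drawn, and the SD is widest without normalization, where MCM3 has 0.82 ± 1.12.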

How the data were processed

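The authors scanned the 4 sectors on a GenePix scanner, quantified them in CombiMatrix Microarray Imager and deposited 1 intensity per spot and channel, without background or normalization. The authors also deposited log2 ratios of the first over the second channel. A global loess followed by scaling between arrays gave these to within 3.17e-08. The members and lists were chosen with earlier results of these data known.

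From the intensities, the 6 blank spots were left out and log2 ratios of 2234 probes were normalized within arrays by limma's robust spline. The SAM/NM coefficient of each probe was fitted by least squares (lmFit and eBayes, limma 3.58.1, R 4.3.3), with Benjamini-Hochberg adjustment over the probes. A probe was called higher at a ratio above 1.3 and lower at one below 0.7, each with an adjusted p under 0.05. A second fit added a dye coefficient. The procedure was tested on simulated data. The array without a number in its label was taken as sector 1, the only sector left for it.

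Named were the 3 members, a cell cycle list from the study's annotations, 4 photosynthesis probes and the 3 probes nearest to each member. Of the list, 9 transcripts were matched by published ratio and p-value on the deposited log2 ratios (summed relative difference at most 5.51e-06, and at least 0.0214 at the next probe), a key that found 21 of 22 listed accessions named in the tables. RefSeq's pea gene table lists 1 gene named PCNA, LOC127084640, and holds none of the probe accessions, so genome positions and sequences are not given. Alternatives were other normalizations, scaling, blank subtraction, a filter on dim probes, position, the deposited ratios, the other channel order, a dye term and leaving out each array.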

Additional observations from a re-analysis of the deposited data

Results flagged for a closer look

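On sector 3, 3 of the 14 cell cycle probes had a log2 SAM/NM ratio whose gap to the nearest array, divided by the range of the 4 arrays, was above Dixon's limit for 4 values at 95%. This describes the spread between arrays and does not compare the SAM with the NM. They were the PCNA probe AB008186 at 2.92, where the other arrays lay between 1.46 and 1.67, the PCNA probe Y16796 at 2.84, where they lay between 1.60 and 1.80, and MCM3 (AY169794) at 0.81, where they lay between 0.43 and 0.47. Chance sets apart about 1 in 20 groups by this test, and the 14 probes share the same 4 arrays. The share of all probes beyond the limit was not computed, so the count is not a result about these probes. AB008186 and Y16796 also had nearly the same values, with a root mean square difference of 0.18, and are hardly separate cases. The gap depended on the normalization. For AB008186 it was 0.855 as reported, and below the limit at 0.393 with median centring alone, 0.157 without normalization, 0.744 with arrays scaled to equal spread and 0.776 for the deposited ratios. For MCM3 it was 0.884 as reported, and below the limit at 0.53 with median centring alone, 0.0619 without normalization, 0.698 with scaling, 0.719 for the deposited ratios, 0.502 without the dimmest probes and 0.729 with row and column medians subtracted. Sector 3 was the highest array of both probes under each of these settings.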

How the results depend on the processing

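With the first channel read as Cy3, the order of the labels, every direction turned: the log2 SAM/NM ratio was -1.90 for AB008186, -0.99 for AB008188 and -0.54 for AY169794, and 0 of the 14 listed transcripts were called higher. Under the other alternatives the mean of each member kept its direction. On sector 2 without normalization, AB008188 was at -0.59 and AY169794 at -0.85, while AB008186 was at 0.70. Only the mean of AY169794 moved by more than its SD, to 0.82 without normalization and to 0.74 with the blank median subtracted. The cause of neither shift was tested. With each array left out in turn the ratio lay between 1.56 and 2.05 for AB008186, between 0.88 and 1.11 for AB008188 and between 0.45 and 0.57 for AY169794. Without normalization 49 probes were called higher and 31 lower, against 218 and 164 as reported, and 3 of the 14 listed transcripts and 1 of the 3 members were called higher. With median centring alone 128 probes and 11 of the 14 listed transcripts were called higher. With an array left out, between 168 and 218 probes were called higher, between 132 and 173 lower, and 13 or 14 of the list higher. The dye effect of AB008186 lay between -0.68 and -0.0019 with an array left out, passing the threshold only without sector 1, where the SAM in Cy3 is sector 3 alone, and was 0.023 with median centring alone. Each such fit has 1 array in 1 dye orientation, assumed to vary like the others. With an array left out, that of AB008188 lay between -0.19 and 0.16 and that of AY169794 between -0.18 and 0.015. The 4 arrays and the lack of a background value limit the size given for dim probes.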
